A study of Mus musculus with 8 samples.

Results

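The Dlx homeobox genes Dlx1, Dlx2, Dlx5 and Dlx6 and the zinc-finger genes Sp8 and Sp9 were followed through single-cell RNA sequencing of mouse frontal isocortex at postnatal day 7. These 6 genes were chosen by name, out of 18141 genes in the tables of the series, from earlier results on D1Tom cells of the same data, namely the levels by genotype and the genes that led clusters of cells. All 6 had a row in both count tables. The cells came from 8 libraries made by the 10x Genomics Chromium 3' method after flow sorting. All mice carried Foxp2 flox/flox, so that the controls had floxed alleles too, and Foxp2 conditional knockout (cKO) mice carried Emx1-Cre in addition, which recombines in the dorsal telencephalic lineage that gives rise to cortical excitatory neurons and cortical glia. Cells of the first kind were sorted for tdTomato from the Drd1a-tdTomato line 6 BAC transgene and are called D1Tom here. Cells of the second kind were sorted for eGFP from the golli-τ-eGFP transgene and are called GTE here. Each sort had 2 control and 2 cKO libraries. In D1Tom every library was labelled female apart from cKO 2, and in GTE every library was labelled male apart from cKO 2. By the labels the first D1Tom control and cKO libraries were prepared on the same day and the second ones on another, which makes 2 batches, while the batches of GTE are unclear from the labels. The labels do not say whether a library held cells of 1 animal or of several.

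Dlx genes are homeobox transcription factors of the ganglionic eminences, the embryonic source of cortical and olfactory bulb GABAergic interneurons, and they are known for driving GABAergic identity, including Gad1 and Gad2, and the migration of these neurons. Sp8 and Sp9 are paralogous zinc-finger transcription factors of the same lineages. Sp8 is known in interneurons of the caudal and lateral eminences and of the olfactory bulb, and Sp9 in interneurons of the medial and lateral eminences and in striatopallidal neurons. Emx1-Cre is not active in most of the ganglionic eminence lineage.

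The genes lie in 4 places of the GRCm38 genome (GENCODE M21). Dlx1 spans chr2:71528113-71533981 on the plus strand and Dlx2 spans chr2:71543408-71546754 on the minus strand, 9.43 kb apart and pointing towards each other. Sp9 lies on the same chromosome at chr2:73271925-73284706 on the plus strand, 1.73 Mb beyond Dlx2. Dlx6, at chr6:6863334-6868568 on the plus strand, and Dlx5, at chr6:6877805-6882085 on the minus strand, form the other convergent pair, 9.24 kb apart. Sp8 lies alone among them at chr12:118846329-118852576 on the plus strand. The annotated antisense genes Dlx1as and Dlx6os1 run across Dlx1 and Dlx6 on the opposite strand. Whether counting used strand is not given in the sources used here, so reads from Dlx1 and Dlx1as, and from Dlx6 and Dlx6os1, cannot be told apart, and neither antisense gene was analysed here.

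The start regions of 4 of the 6 genes are shown because these genes were higher together in D1Tom cKO libraries, and because the letters bound by the 2 families can be looked for in them. Each run is 300 bases from RefSeq (GRCm38.p6), from 250 bases before to 50 bases after a start, 5′ to 3′ on the strand of the gene. Capitals mark TAATTA, the homeodomain core, which reads the same on both strands, and GGGCGG, the GC box of Sp-family factors, which reads CCGCCC when it lies on the other strand. The 2 motifs do not overlap in these windows. For Sp8 2 of its 3 listed starts, the middle and the last, are shown, as those that hold a match.
Dlx1, chr2:71529195-71529494, plus strand: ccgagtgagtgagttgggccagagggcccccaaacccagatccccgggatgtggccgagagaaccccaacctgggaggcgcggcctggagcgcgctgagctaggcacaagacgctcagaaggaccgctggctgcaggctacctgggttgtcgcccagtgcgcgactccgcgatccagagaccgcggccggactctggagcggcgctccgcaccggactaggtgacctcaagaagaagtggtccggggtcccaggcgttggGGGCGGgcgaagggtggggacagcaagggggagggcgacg
Dlx2, chr2:71546705-71547004, minus strand: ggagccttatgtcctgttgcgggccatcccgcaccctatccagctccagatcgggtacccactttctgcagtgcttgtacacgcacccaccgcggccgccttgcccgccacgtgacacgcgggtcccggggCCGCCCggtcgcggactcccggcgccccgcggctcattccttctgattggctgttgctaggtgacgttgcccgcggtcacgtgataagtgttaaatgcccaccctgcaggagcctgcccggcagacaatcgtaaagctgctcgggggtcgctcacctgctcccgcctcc
Sp9, chr2:73271676-73271975, plus strand: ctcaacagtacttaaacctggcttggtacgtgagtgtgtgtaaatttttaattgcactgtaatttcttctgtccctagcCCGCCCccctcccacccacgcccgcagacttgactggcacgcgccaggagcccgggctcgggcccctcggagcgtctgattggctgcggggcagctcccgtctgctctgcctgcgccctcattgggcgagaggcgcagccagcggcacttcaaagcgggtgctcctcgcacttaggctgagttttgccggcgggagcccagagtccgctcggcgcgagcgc
Sp8, middle start, chr12:118846983-118847282, plus strand: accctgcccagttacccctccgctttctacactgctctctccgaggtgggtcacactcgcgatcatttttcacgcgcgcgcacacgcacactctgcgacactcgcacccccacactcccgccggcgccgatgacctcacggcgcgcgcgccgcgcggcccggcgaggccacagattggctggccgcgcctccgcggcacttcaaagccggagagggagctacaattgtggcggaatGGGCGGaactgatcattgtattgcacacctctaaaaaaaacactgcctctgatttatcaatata
Sp8, last start, chr12:118847309-118847608, plus strand: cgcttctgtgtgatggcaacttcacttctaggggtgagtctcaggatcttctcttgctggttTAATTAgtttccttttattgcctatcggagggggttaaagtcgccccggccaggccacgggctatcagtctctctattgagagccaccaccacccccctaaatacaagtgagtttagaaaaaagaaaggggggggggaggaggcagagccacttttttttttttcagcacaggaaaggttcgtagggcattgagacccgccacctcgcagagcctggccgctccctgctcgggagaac
The GC box occurred 1 time in the windows of Dlx1, Dlx2 and Sp9 and in that of the middle Sp8 start, and the core TAATTA occurred 1 time, at the last Sp8 start. Over all 32851 windows of this table, 35.7% held a GC box and 5.29% held TAATTA, on either strand. A match is a run of letters and shows no binding. Dlx5 and Dlx6 had no entry.

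Both D1Tom cKO libraries held fewer counts than both D1Tom controls, and GTE libraries held far fewer than any D1Tom library. D1Tom libraries held 2395 to 3206 cells and 27323298 to 36379194 counts, and GTE libraries held 1440 to 3948 cells and 4878370 to 6092396 counts. Between 12 and 56 cell barcodes of a library also occurred in another library of the same sort. Single counts were not always the most frequent ones above 0, since a value of 2 was 1.69 times as frequent as a value of 1 in D1Tom control 1 and 0.307 times as frequent in D1Tom cKO 2. Whether the deposited values are numbers of distinct molecules is therefore uncertain, and with it what 1 count stands for, so sums, cells thinned to a fixed number of counts and shares of cells with a count may not mean the same in every library. Foxp2, the targeted gene, stood at 26.5 and 19.4 CPM (counts of a gene per 1000000 counts of a library) in D1Tom cKO 1 and cKO 2 and at 36.3 and 39.1 CPM in control 1 and control 2. In GTE its groups overlapped, with 25.4 and 7.43 CPM in cKO 1 and cKO 2 and 9.52 and 46.9 CPM in control 1 and control 2.

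All 6 genes were higher in both D1Tom cKO libraries than in both D1Tom controls. This contrast was among the results that led to the choice of the genes, so it is given as a description, without a test. Apart from totals of counts, levels of different genes are not compared here. Across all 15681 genes with at least 10 counts in these libraries, 9.79% had both cKO libraries above both controls. The fits of sums over all cells with edgeR called 0 of 14508 genes (0%) between D1Tom genotypes at an adjusted p under 0.05, with 320 at an unadjusted p under 0.05. A fit that blocks on the library number, which marks the batch, called 1 gene (0.00689%), which was none of the 6. With this block 1342 genes had an unadjusted p under 0.05. DESeq2 on the same sums called 20 genes (0.138%), 5 of them among the 6 described here, all but Dlx6. The genes were chosen from this contrast, so nothing is read from these calls.

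Dlx1 and Dlx2 are the pair expressed earliest in ganglionic eminence progenitors. Dlx1 stood at 67.9 CPM in D1Tom cKO 1 and 74.2 in cKO 2, against 33.5 in control 1 and 22.9 in control 2. The cKO mean was 71.1 ± 4.46 CPM and the control mean 28.2 ± 7.53 (SD, n = 2 each). The fitted log2 fold change was 1.41 (standard error, SE, 0.21). Dlx2 stood at 60.4 and 55.7 CPM in cKO 1 and cKO 2, against 23.8 and 12.3 in control 1 and control 2, with a fitted log2 fold change of 1.76 (SE 0.29). For both genes the 2 cKO libraries lay close together and the 2 controls were further apart, by 1.47 times for Dlx1 and 1.94 times for Dlx2.

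Dlx5 and Dlx6 are the pair that follows in postmitotic GABAergic cells. Dlx5 stood at 30.5 and 23.3 CPM in D1Tom cKO 1 and cKO 2, against 13.4 and 7.95 in control 1 and control 2, with a fitted log2 fold change of 1.40 (SE 0.25). Dlx6 had the lowest total of counts and the smallest difference of the 6 genes. Its libraries stood at 8.24 and 6.48 CPM in cKO 1 and cKO 2 and at 5.99 and 3.25 in control 1 and control 2, so that cKO 2 and control 1 nearly met, and its log2 fold change was 0.74 (SE 0.32).

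The differences of Sp8 and Sp9 were close to that of Dlx2. Sp8 stood at 30.6 and 32.4 CPM in D1Tom cKO 1 and cKO 2, against 11.0 and 7.90 in control 1 and control 2 (log2 fold change 1.81, SE 0.21). Sp9 stood at 30.8 and 34.4 CPM in cKO 1 and cKO 2, against 10.7 and 8.17 in control 1 and control 2 (log2 fold change 1.86, SE 0.21). The difference was present within both batches for all 6 genes. Within batch 1, cKO over control was 2.03-fold for Dlx1, 2.53-fold for Dlx2, 2.27-fold for Dlx5, 1.38-fold for Dlx6, 2.78-fold for Sp8 and 2.86-fold for Sp9. Within batch 2 the same ratios were 3.24, 4.54, 2.93, 1.99, 4.10 and 4.21. When each cell was counted once per gene, a setting chosen after the data were seen, the log2 fold changes of Dlx2 and Sp9 were 0.96 and 1.15.

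**Figure D1:**
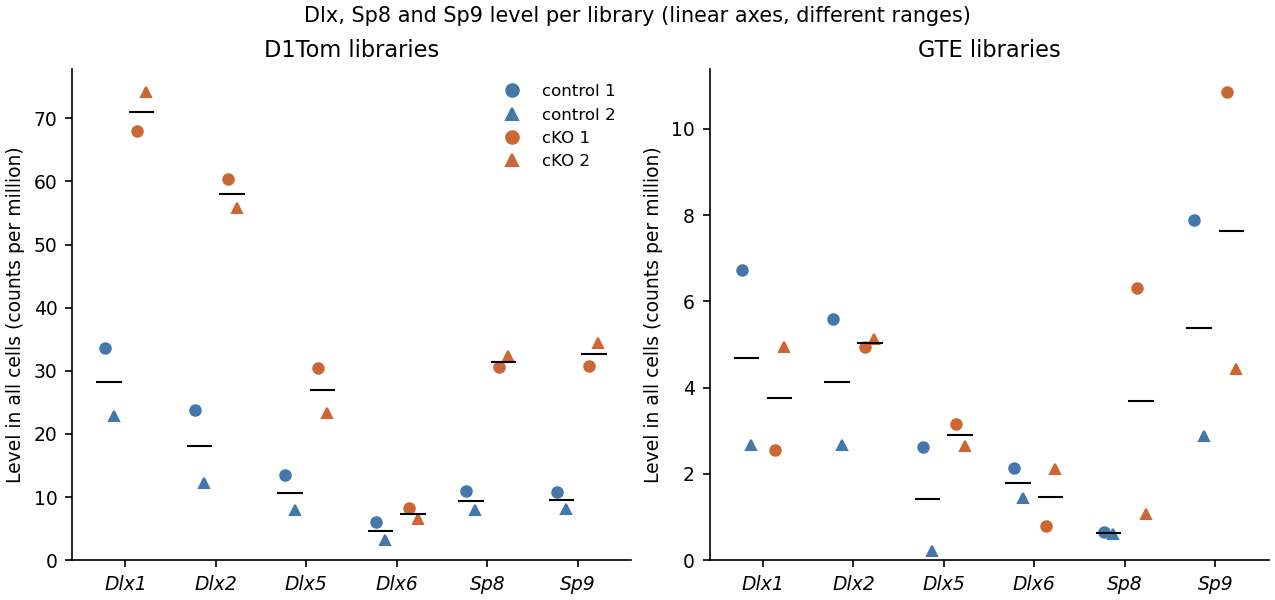
Level of each gene in all cells of a library, in CPM on linear axes that start at 0, for D1Tom (left) and GTE (right); points are single libraries and black lines are group means. In D1Tom both cKO points lie above both control points for all 6 genes, while in GTE, where levels reach 10.8 CPM at most, this holds for Dlx5 and Sp8.

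The share of cells with a count of Gad1 or Gad2, the enzymes that make GABA, overlapped between the genotypes. It was 26.3% and 30.3% in D1Tom cKO 1 and cKO 2 and 17.2% and 26.4% in control 1 and control 2. After every cell was thinned to 1000 counts it was 10.4%, 6.66%, 6.76% and 6.22% in the same order. Gad1 and Gad2 themselves overlapped between genotypes over all cells. Gad1 stood at 62.2 and 47.7 CPM in cKO 1 and cKO 2 and at 56.0 and 39.3 in control 1 and control 2. Gad2 stood at 66.6 and 50.5 CPM in cKO and at 55.4 and 37.4 in control. Within each batch, however, Gad1, Gad2 and the share of Gad cells, thinned or not, were higher in cKO than in control. The part of the Gad cell share in the level of the 6 genes was not tested.

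Most counts of the 6 genes in D1Tom lay in cells with Gad1 or Gad2, called Gad cells below. The name stands for a Gad count and not for a cell type. In Gad cells of cKO 1, cKO 2, control 1 and control 2, 6 astrocyte markers summed to 1686, 2524, 1131 and 1868 CPM. In the same order, 6 GABAergic markers, Gad1 and Gad2 among them, summed to 873, 456, 1011 and 480 CPM. Their part in the levels of the 6 genes was not tested. The share of Dlx5 counts in Gad cells was 85.2% and 85.2% in cKO 1 and cKO 2, and 93.4% and 92.7% in control 1 and control 2. For Sp8 the shares were 84.4% and 85.4% in cKO and 78.8% and 82.0% in control. Levels in Gad cells exceeded those in cells without Gad by a log2 fold change of 3.30 (SE 0.24) for Dlx1, 3.51 (SE 0.28) for Dlx2, 4.21 (SE 0.30) for Dlx5, 3.52 (SE 0.33) for Dlx6, 3.55 (SE 0.11) for Sp8 and 3.62 (SE 0.17) for Sp9. The pattern over D1Tom cell types was also known when the genes were chosen, so these differences carry no test.

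Within Gad cells the genotype difference was smaller and the libraries less separate. Both cKO libraries were above both controls for 4 of the 6 genes, Dlx1, Dlx2, Sp8 and Sp9, beside 11.4% of 14477 genes. In Gad cells edgeR called 0 of 13187 genes between genotypes (0%), with 315 at an unadjusted p under 0.05. Blocking on the library number it called 120 (0.91%), Dlx2, Sp8 and Sp9 among them, with 1857 at an unadjusted p under 0.05. The genes were chosen from this contrast, so nothing is read from these calls. Sp8 stood at 82.5 and 72.9 CPM in Gad cells of cKO 1 and cKO 2, against 41.9 and 22.7 in control 1 and control 2. Sp9 stood at 81.0 and 77.3 CPM, against 44.6 and 23.6. For Dlx5 the order was broken by control 1, whose 60.7 CPM lay above the 52.3 of cKO 2. Dlx6 was highest in control 1, at 26.0 CPM, with 22.2 and 13.0 in cKO 1 and cKO 2 and 8.76 in control 2.

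In cells without Gad all 6 genes kept both cKO libraries above both controls, beside 9.3% of 15394 genes, at levels far below those of Gad cells. Dlx2 stood at 17.1 and 18.4 CPM in cKO 1 and cKO 2, against 3.26 and 3.04 in control 1 and control 2. Dlx5 stood at 6.56 and 5.54 CPM, against 1.11 and 0.818. The fitted log2 fold changes were 2.58 (SE 0.23) for Dlx2 and 2.71 (SE 0.34) for Dlx5. For Sp9 the value was 2.12 (SE 0.29) and for Sp8 1.65 (SE 0.32). The edgeR fit called 0 of 14203 genes in these cells (0%), with 295 at an unadjusted p under 0.05. With the block it called 4 (0.0282%), Dlx2 among them, with 1159 at an unadjusted p under 0.05. Nothing is read from these calls either. A cell without a Gad count can still hold Gad transcripts that were not captured.

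Cells were then classed by how many of 6 fixed marker genes of each of 10 cell types had a count, and 9289 of 11494 D1Tom cells were classed. Of these, 615 had only the minimum of 2 markers, and 1561 further cells were left out because of a tie. The lists did not include any of the 6 genes. Of the 5 classes shown here, all 6 genes were highest in GABAergic-like cells in the 2 control libraries. In the cKO libraries, GABAergic-like and dividing-like cells both stood far above the glial and excitatory classes. Dlx1, for example, stood at 276 and 165 CPM in GABAergic-like cells of control 1 and control 2, at 8.63 and 16.3 in astrocyte-like cells, at 10.6 and 25.1 in oligodendrocyte precursor-like cells and at 3.08 and 11.1 in excitatory-like cells. The 3 lower classes are neighbours whose ranges overlap for Dlx1.

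**Figure D2:**
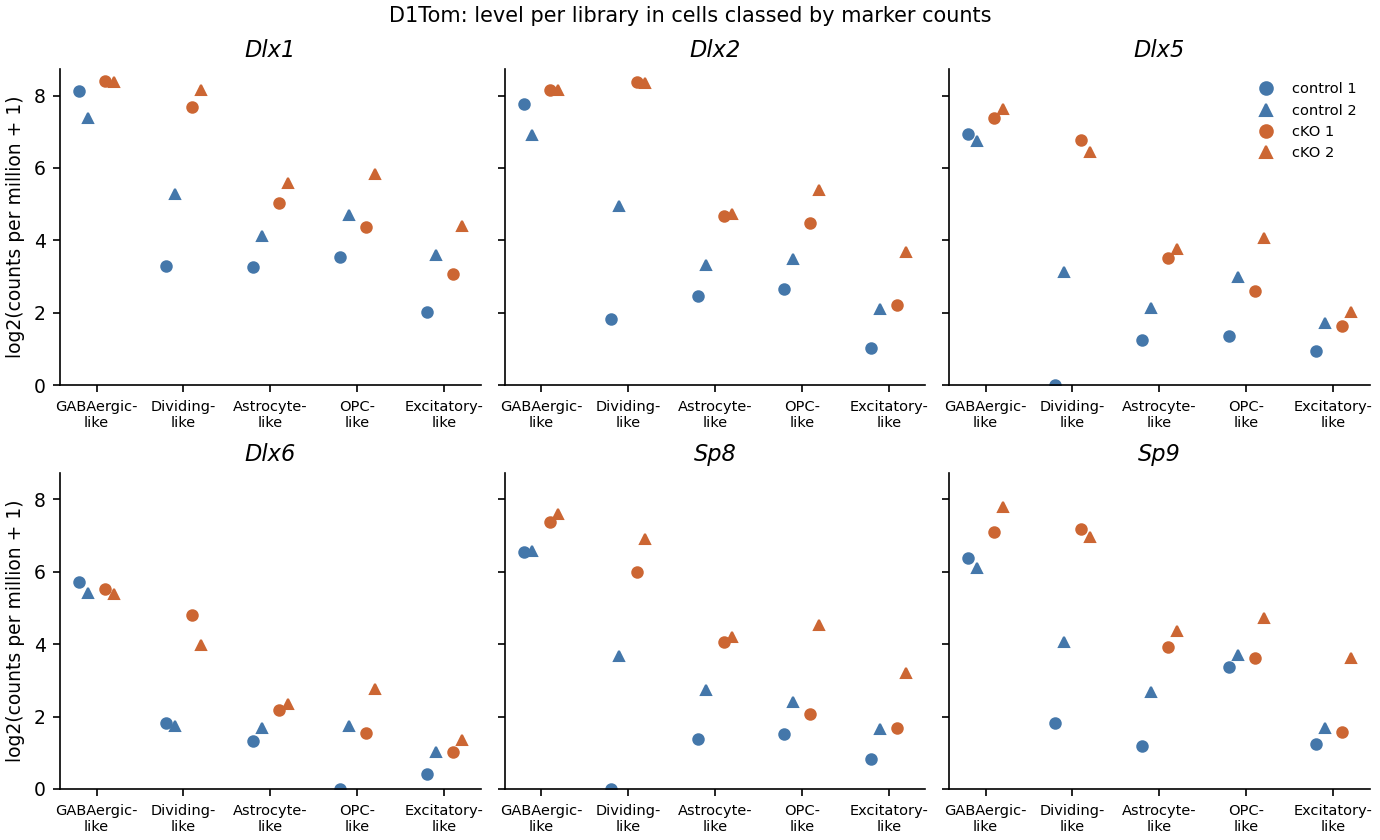
Level of each gene in D1Tom cells of 5 marker classes, as log2(CPM + 1), with 1 point per library (OPC is oligodendrocyte precursor). GABAergic-like cells are high in every library, and dividing-like cells are high in the cKO libraries and low in the controls for all 6 genes.

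GABAergic-like cells were defined by a list of 6 markers that includes Gad1, Gad2, Slc32a1, Lhx6 and Adarb2, and held a median of 4 of them. They made up 11.7% and 2.30% of cells in cKO 1 and cKO 2 and 9.11% and 4.30% in control 1 and control 2. Within them 5 of the 6 genes had both cKO libraries above both controls, beside 17.4% of 12261 genes. Sp8 stood at 164 and 192 CPM in cKO 1 and cKO 2, against 92.1 and 94.4 in control 1 and control 2. Sp9 stood at 135 and 219 CPM, against 82.3 and 67.6. Dlx6 was the exception, with 44.8 and 40.5 CPM in cKO and 52.0 and 41.5 in control. In the same cells the summed level of 6 olfactory and lateral eminence markers (Meis2, Pbx3, Tshz1, Etv1, Zic1 and Pax6) was 832 and 1284 CPM in cKO and 281 and 180 in control, with none of the 6 at 0. Its part in the levels of Sp8 and Sp9 was not tested. Foxp2 in GABAergic-like cells was 43.0 and 47.3 CPM in cKO and 12.5 and 9.21 in control, while in excitatory-like cells it was 12.2 and 16.5 in cKO and 58.3 and 52.7 in control.

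The glial classes held low levels of the genes, in which free RNA, doublets and misclassed cells cannot be told apart. The summed GABAergic list in astrocyte-like cells was 156 and 159 CPM in cKO 1 and cKO 2 and 132 and 124 in control 1 and control 2. In oligodendrocyte precursor-like cells it was 117 and 163 CPM in cKO and 71.4 and 148 in control. Its part in the levels of the 6 genes was not tested. In astrocyte-like cells all 6 genes had both cKO libraries above both controls, beside 9.26% of 14145 genes. Dlx2 stood there at 24.3 and 25.6 CPM in cKO 1 and cKO 2, against 4.49 and 8.94 in control 1 and control 2, and Sp8 at 15.6 and 17.3 against 1.61 and 5.66. In oligodendrocyte precursor-like cells 1 of the 6 genes did so, Dlx2, beside 7.74% of 13107 genes. Dlx2 stood there at 21.4 and 41.0 CPM in cKO, against 5.28 and 10.3 in control. Between these 2 glial classes the fitted log2 differences (precursor-like minus astrocyte-like) ranged from -0.59 (SE 0.42) for Sp8 to 0.62 (SE 0.39) for Sp9, and those of Dlx1 and Dlx5 were both -0.01.

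Excitatory-like cells are outside the lineage in which these genes are known, so their level is given for reference. Free RNA, doublets and misclassed cells cannot be told apart in it. At 1000 counts per cell, 0.384% and 0.587% of excitatory-like cells in cKO 1 and cKO 2 had a Dlx2 count, and 0.114% and 0.304% in control 1 and control 2. Among GABAergic-like cells the shares were 23.1% and 22.5% in cKO and 20.0% and 14.6% in control. Among astrocyte-like cells they were 1.75% and 2.12% in cKO and 0.502% and 0.467% in control. Without thinning, astrocyte-like cells with a Dlx2 count made up 5.82% and 10.2% in cKO and 2.31% and 6.39% in control, at median depths of 7629, 6841, 7835 and 10027 counts per cell. For excitatory-like cells the unthinned shares were 3.65%, 5.56%, 1.36% and 3.50%, at median depths of 10431, 8855, 16292 and 17528. Among excitatory-like cells 3 of the 6 genes, Dlx2, Dlx6 and Sp8, had both cKO libraries above both controls in CPM, beside 12.6% of 14129 genes, and the nearest cKO and control values were 1.05 and 1.02 CPM for Dlx6 and 2.21 and 2.14 for Sp8. Sp9 there was 1.98 and 11.4 CPM in cKO and 1.38 and 2.22 in control.

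**Figure D3:**
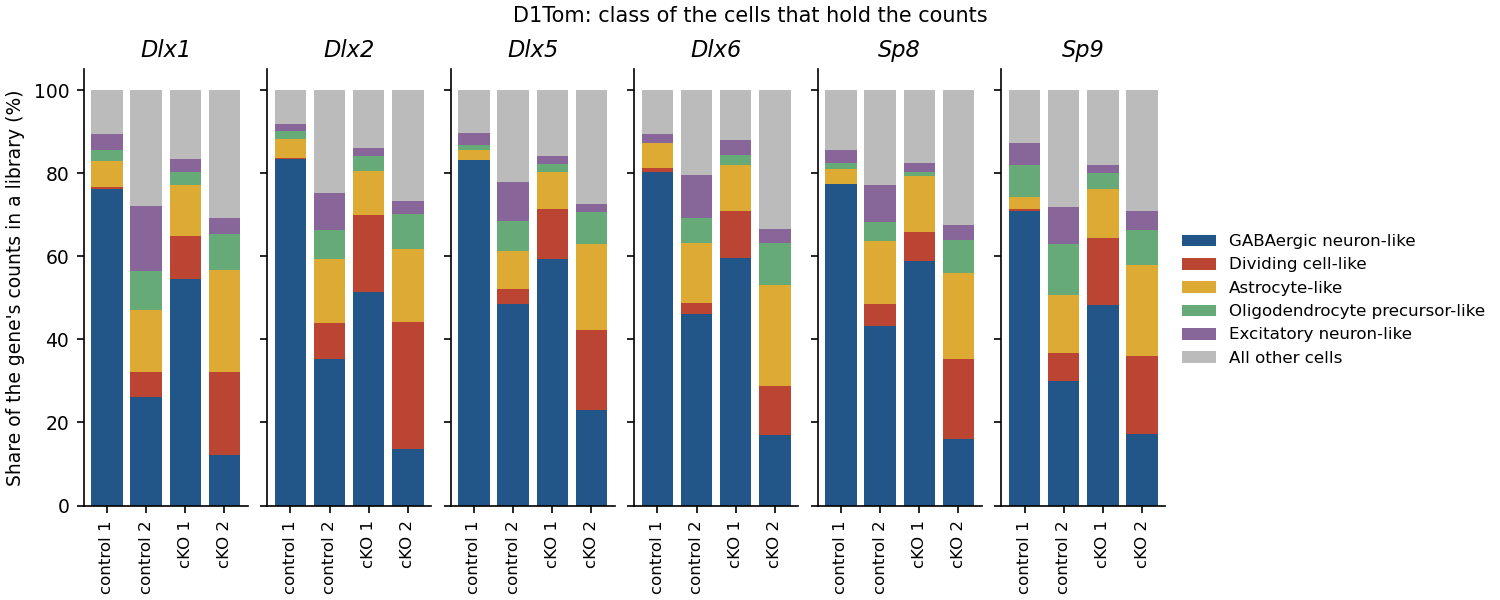
Share of the counts of each gene in a D1Tom library that lies in each marker class, in percent; bars add to 100. The GABAergic-like share is smaller in cKO than in control within each batch, and the dividing-like share is larger in both cKO libraries for every gene.

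Dividing-like cells, defined by Mki67, Top2a, Cenpf, Ccnb1, Hmgb2 and Birc5 with a median of all 6 detected, showed the widest separation of the genotypes. There were 66 and 111 such cells in D1Tom cKO 1 and cKO 2 and 60 and 74 in control 1 and control 2, or 2.35%, 3.60%, 1.87% and 3.09% of the cells. All 6 genes had both cKO libraries above both controls in them, beside 14.4% of 12222 genes. Dlx2 stood at 329 and 322 CPM in cKO 1 and cKO 2, against 2.53 and 29.6 in control 1 and control 2. Dlx1 stood at 205 and 285 CPM, against 8.86 and 38.2. Sp9 stood at 145 and 123 CPM, against 2.53 and 15.6. Dlx5 and Sp8 had no count in control 1, where 3 counts would be 3.80 CPM, and 7.79 and 11.7 CPM in control 2, whereas Dlx5 stood at 109 and 85.1 CPM and Sp8 at 63.0 and 119 CPM in cKO 1 and cKO 2. Dividing-like cells held 18.5% and 30.3% of all Dlx2 counts in cKO 1 and cKO 2, and 0.231% and 8.60% in control 1 and control 2. When cells were classed by marker level in place of marker number, a setting chosen after the data were seen, Dlx2 in dividing-like cells stood at 151 and 174 CPM in cKO and 2.67 and 23.4 in control.

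Regulators of the eminences did not all follow the 6 genes in these cells. Gsx2, a homeobox gene of lateral eminence progenitors, stood at 57.0 and 41.9 CPM in dividing-like cells of cKO 1 and cKO 2, against 3.80 and 4.67 in control 1 and control 2. Pax6 stood at 137 and 136 CPM, against 97.5 and 51.4. Gsx1, at 4.0 and 7.67 CPM against 13.9 and 5.45, and Nkx2-1, at 5.00 and 0.698 CPM against 12.7 and 3.12, overlapped between the genotypes, and the medial eminence list summed to 206 and 149 CPM in cKO and 380 and 172 in control. Gad1 or Gad2 was detected in 27.3% and 45.9% of these cells in cKO and in 15.0% and 21.6% in control. The summed GABAergic marker list was 238 and 299 CPM in cKO and 129 and 118 in control, with no marker at 0. The summed astrocyte list was 1923 and 1516 CPM in cKO and 3176 and 1953 in control, and the summed oligodendrocyte precursor list 1270 and 670 in cKO and 1554 and 960 in control, again with no marker at 0. The endothelial list summed to 241 and 565 CPM in cKO and 727 and 1258 in control, with 1 marker at 0 in every library, and the microglia list to 0 and 23.7 CPM in cKO and 149 and 122 in control, with all 6 markers at 0 in cKO 1. The part of these markers in the levels of the 6 genes was not tested. These regulators and the marker genes just given were looked at after the levels of the 6 genes in dividing-like cells were known.

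**Figure D4:**
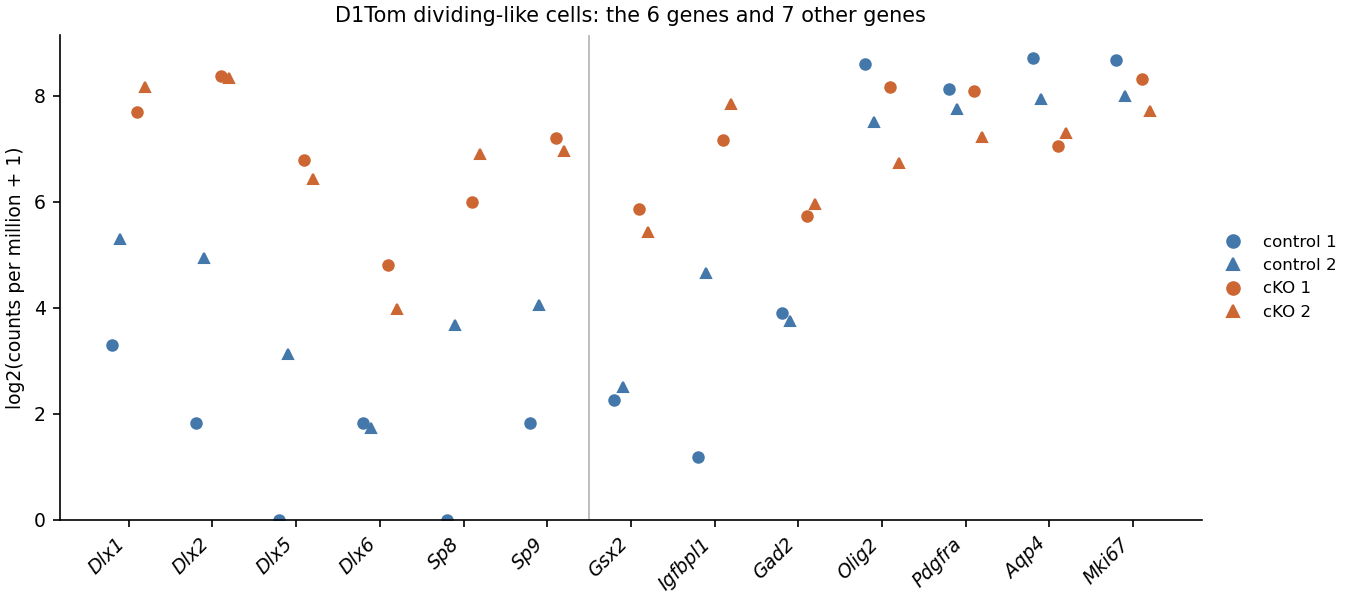
Level in D1Tom dividing-like cells, as log2(CPM + 1), with 1 point per library, for the 6 genes (left of the line) and for 7 other genes chosen after their values were seen (right). The 6 genes, Gsx2, Igfbpl1 and Gad2 have both cKO libraries above both controls; Mki67, Olig2, Pdgfra and Aqp4 do not.

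Gad cells were split by 4 further lists of 6 markers each, and 2119 of 2855 D1Tom Gad cells were placed. Of those, 487 held only the minimum of 2 markers, and 367 others were tied. Cells of the medial eminence list (among them Lhx6, Sst, Nxph1, Sox6 and Maf) numbered 126 and 132 in cKO 1 and cKO 2 and 98 and 119 in control 1 and control 2. Cells of the caudal eminence list (Adarb2, Prox1, Npas1, Vip, Htr3a and Nr2f2) numbered 138, 50, 154 and 89 in the same order. In neither of these did any of the 6 genes have both cKO libraries above both controls, beside 11.1% of 12452 genes for the medial list and 11% of 11721 genes for the caudal list. This depended on how the cells were classed. With cells classed by marker level, 3 of the 6 genes had both cKO libraries above both controls in caudal-list cells, namely Dlx5, Sp8 and Sp9, and 1 had in medial-list cells, Sp8. The cKO mean over the control mean was then 1.40-fold for Dlx5, 1.30-fold for Sp8 and 2.33-fold for Sp9 in caudal-list cells, and 3.15-fold for Sp8 in medial-list cells. With at least 3 markers 1 gene did so, Sp9 in caudal-list cells.

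Sp8 and Sp9 differed in level between cells of these 2 lists. Sp8 stood at 147 and 70.3 CPM in caudal-list cells of cKO 1 and cKO 2 and at 114 and 115 in control 1 and control 2. In medial-list cells Sp8 stood at 6.87 and 15.3 CPM in cKO and 10.3 and 8.01 in control, so that the 2 lists did not overlap in any library. Sp9 went the other way in medial-list cells, at 81.8 and 36.5 CPM in cKO and 94.6 and 55.0 in control, against 36.3, 36.1, 39.4 and 31.1 CPM in caudal-list cells of cKO 1, cKO 2, control 1 and control 2. In cKO 2 the 2 lists were nearly equal for Sp9. The summed astrocyte list was 958, 1847, 367 and 1344 CPM in medial-list cells of cKO 1, cKO 2, control 1 and control 2. In caudal-list cells it was 212, 1216, 186 and 606 CPM, with no marker at 0 in either. In the same order, the summed oligodendrocyte precursor list was 943, 980, 732 and 669 CPM in medial-list cells. In caudal-list cells it was 190, 504, 87.2 and 381 CPM, again with no marker at 0. The summed GABAergic list was 858, 484, 1218 and 640 CPM in medial-list cells. In caudal-list cells it was 2149, 1342, 2102 and 1401 CPM, with 1 marker at 0 in every library. In medial-list cells of cKO 1, cKO 2 and control 2, both glial lists thus summed above the GABAergic list. In those of control 1, and in caudal-list cells of every library, the GABAergic list was above both. Medial-list cells are therefore named by rule only. The part of these lists in the levels of the 6 genes was not tested. With cells classed by marker level, the Sp8 order held in all 4 libraries, at 122 to 176 CPM in caudal-list and 10.5 to 53.4 in medial-list cells, and the Sp9 order held in 3 and turned in cKO 2, at 51.9 CPM in medial-list and 132 in caudal-list cells. Dlx1 was higher in caudal-list than in medial-list cells of every library, by 323 against 113 CPM in cKO 1, 124 against 68.7 in cKO 2, 308 against 155 in control 1 and 185 against 83.3 in control 2. Dlx6, in contrast, showed no steady order, with 34.9 against 38.1 CPM in control 1 and 26.6 against 6.79 in cKO 2.

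**Figure D5:**
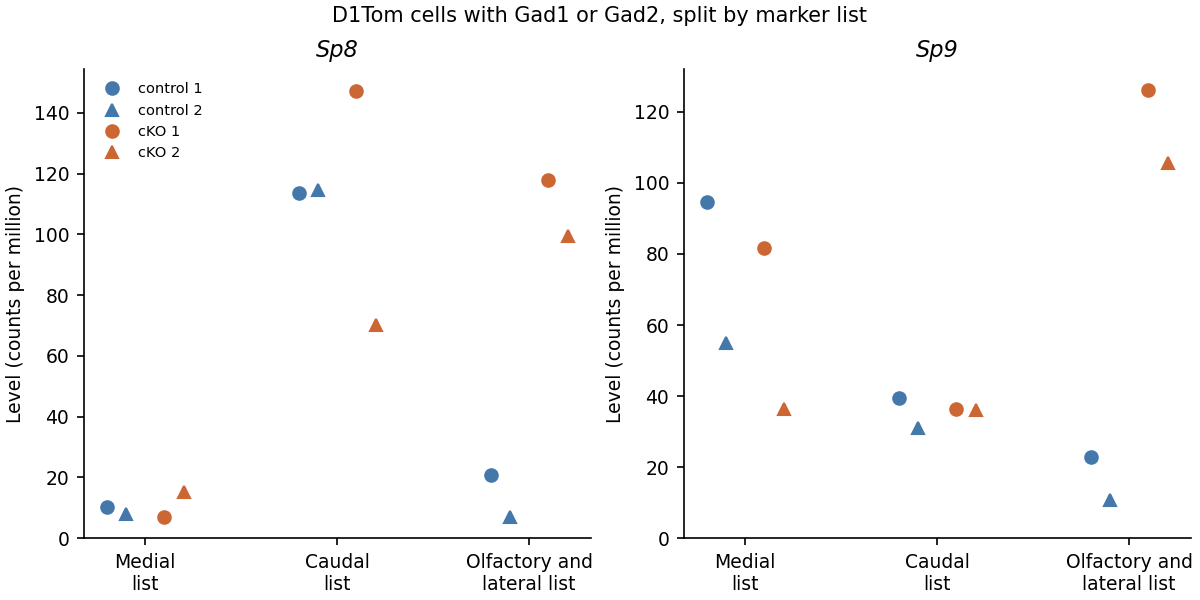
Level of Sp8 (left) and Sp9 (right) in D1Tom Gad cells of 3 marker lists, in CPM, with 1 point per library. Sp8 is high in caudal-list and low in medial-list cells of every library, Sp9 is lower in caudal-list than in medial-list cells of 3 libraries and nearly equal in cKO 2, and both genes are high in olfactory and lateral list cells of the cKO libraries.

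Among the lists of Gad cells, the genotypes were furthest apart in those placed by the olfactory and lateral eminence list. These cells numbered 273 and 507 in cKO 1 and cKO 2 and 145 and 273 in control 1 and control 2. They held a median of 5 of the 6 astrocyte markers in both genotypes, so their markers go against the name of the list, and they are called olfactory and lateral list cells by rule only. Their summed astrocyte list was 2839 and 2933 CPM in cKO and 2748 and 2600 in control, with no marker at 0, and their summed GABAergic list was 538 and 411 CPM in cKO and 255 and 218 in control. Sp8 stood in them at 118 and 99.3 CPM in cKO 1 and cKO 2, against 20.7 and 6.89 in control 1 and control 2. Sp9 stood at 126 and 106 CPM, against 22.9 and 10.9. Dlx2 stood at 222 and 162 CPM, against 40.5 and 11.5. With cells classed by marker level this list held 88 and 49 cells in cKO and 23 and 14 in control, and Dlx2 overlapped between the genotypes there, at 376 and 343 CPM in cKO and 376 and 28.3 in control. When these cells were left out, a setting chosen after the data were seen, the log2 fold changes between genotypes in the other Gad cells were -0.22 (SE 0.43) for Dlx1, -0.25 (SE 0.49) for Dlx2, -0.23 (SE 0.46) for Dlx5, -0.60 (SE 0.51) for Dlx6, 0.04 (SE 0.31) for Sp8 and -0.09 (SE 0.29) for Sp9. Over all D1Tom cells without both these and the dividing-like cells, the log2 fold changes were 0.54 for Dlx1, 0.57 for Dlx2, 0.51 for Dlx5, 0.11 for Dlx6, 0.63 for Sp8 and 0.71 for Sp9.

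Counts of more than 1 of the genes were also found in the same cells. This is a description, since the shares were not set against the share of all Gad cells with Dlx2 or matched for depth. Of D1Tom Gad cells with a Dlx5 count, 74.8% and 81.3% also had Dlx2 in cKO 1 and cKO 2, and 75.2% and 60.8% in control 1 and control 2. Cells with both Sp8 and Sp9 numbered 98 and 162 in D1Tom cKO 1 and cKO 2 and 24 and 26 in control 1 and control 2, which is 3.49%, 5.26%, 0.749% and 1.09% of the cells. They were picked by counts of 2 genes that were already higher in cKO, so these numbers are a description too. Of these Sp8 and Sp9 double-positive cells, 56 and 118 in cKO and 9 and 4 in control were olfactory and lateral list cells, 14 and 5 in cKO and 9 and 10 in control were caudal-list cells, and 10 and 35 in cKO and 0 and 1 in control were dividing-like. Dlx2 was detected in 84 and 152 of them in cKO and in 19 and 20 in control, and Foxp2 in 18 and 53 in cKO and in 4 and 4 in control. Their median depth was 10016 and 13691 counts in cKO and 7834 and 13751 in control.

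Over 20 sums of library by class (5 classes, each with at least 30 cells in every library), the genes whose log2(CPM + 1) followed each of the 6 most closely were found among 11121 genes. Gad2 came first for Dlx1 (Pearson r = 0.89), Dlx5 (r = 0.89) and Dlx6 (r = 0.94). Gad2 is 1 of the 6 markers that define GABAergic-like cells, so its r values here are partly set by how the cells were classed. Igfbpl1, a gene of immature neurons, came first for Sp8 (r = 0.89) and Sp9 (r = 0.88). Gltscr2 came first for Dlx2 (r = 0.88), followed by Igfbpl1. Between the 6 genes r ran from 0.89 for Dlx6 with Sp9 to 0.99 for Dlx1 with Dlx2. Dlx6 followed Gad2 more closely than it followed Dlx2 (r = 0.92), Sp8 (r = 0.92) or Sp9. The sums of 1 library share its depth and its handling, so these values are descriptions.

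A list of 40 other genes of the GABAergic lineage was read in the same D1Tom contrast, and 38 passed the filter on low counts. Of these, 31 had a log2 fold change above 0, and the median was 0.27 beside -0.01 over all genes tested. Both cKO libraries were above both controls for 15 of the 38, beside 9.79% of 15681 genes. They were below both controls for 4, beside 2193 of the 15681 genes. The edgeR test called 0 of the 38. DESeq2 called 4 of them, all higher in cKO, beside 0.138% of 14508 genes. Gsx2, Pbx3 and Tshz1 were among the 4. This contrast belongs to those that led to the choice of the 6 genes, so the counts are descriptions.

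By role, the 7 regulators above or beside Dlx in the eminences had a median log2 fold change of 0.99, and 5 had both cKO libraries above both controls. For every role, the share over all genes with both cKO libraries above both controls was 9.79%. Gsx2 stood at 4.65 and 5.97 CPM in cKO 1 and cKO 2, against 1.54 and 1.39 in control 1 and control 2 (log2 fold change 1.94, SE 0.34). Vax1, a ventral homeobox gene, stood at 0.746 and 0.769 CPM, against 0.137 and 0 in control, where 3 counts would be 0.0834 CPM in control 2. Six3, a homeobox gene of striatal and olfactory progenitors, stood at 0.712 and 0.842 CPM, against 0.522 and 0.111. Among the 17 lineage transcription factors tested the median was 0.26 and 6 had both cKO libraries above, with Pbx3 at 29.8 and 19.3 CPM against 10.2 and 10.5. The 4 genes of GABA synthesis and transport had a median of 0.34. The 10 migration receptors and adhesion genes were split, with 3 above and 3 below. Of the other family members, Dlx3 had 1 count in D1Tom in all, and Sp4, a broadly expressed relative of Sp8, stood at 27.4 and 26.6 CPM in cKO and 23.7 and 25.2 in control.

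The GTE sort did not enter the choice of the genes and was tested. The 6 genes were rare in it, with Dlx1 at 13 and 28 counts in GTE cKO 1 and cKO 2 and 41 and 13 in control 1 and control 2. Dlx2 had 25 and 29 counts in cKO and 34 and 13 in control, and Sp9 had 55 and 25 in cKO and 48 and 14 in control. Dlx5 had 16 and 15 counts in cKO, and 16 and 1 in control. Dlx6 had 4 and 12 counts in cKO and 13 and 7 in control. Sp8 had 32 and 6 counts in cKO and 4 and 3 in control, and the 32 counts came from 8 cells. Sp8 did not pass the filter on low counts.

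None of the 5 genes tested in GTE was called between genotypes by edgeR's quasi-likelihood test at an adjusted p under 0.05, nor by DESeq2, and none of them had an unadjusted p under 0.05 in edgeR. The test called 4 of 12042 genes (0.0332%), with 629 at an unadjusted p under 0.05, and DESeq2 called 0. The log2 fold changes were -0.69 (SE 0.70) for Dlx1, -0.15 (SE 0.69) for Dlx2, 0.48 (SE 0.86) for Dlx5, -0.60 (SE 0.89) for Dlx6 and -0.09 (SE 0.64) for Sp9, with edgeR adjusted p from 0.984 to 0.996. The SE of each exceeded the size of its fold change, so that none could be told from 0. What size of difference could have been detected, and the part of depth in it, was not tested. Both GTE cKO libraries were above both controls for 2 of the 6 genes, Dlx5 and Sp8, beside 19.9% of 13594 genes. Whether the genotype difference of any of the 6 genes differs between the sorts was not tested.

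Only 3 of the 6 genes could be tested in GTE between Gad cells and cells without Gad. Sp9 had the largest difference, with 39 and 7 counts in Gad cells of cKO 1 and cKO 2 and 7 and 2 in those of control 1 and control 2, against 16, 18, 41 and 12 counts in the far more numerous cells without Gad. In cKO 1 a single cell held 20 of all 55 Sp9 counts, and a single cell held 16 of all 25 Dlx2 counts. The log2 fold change of Sp9 was 2.41 (SE 0.68), and it was not called (edgeR adjusted p = 0.23). Over the alternatives run it lay between 1.502, without cKO 1, and 2.89, without control 1, with adjusted p from 0.0532 to 0.836 (edgeR or DESeq2). Dlx2 was at 2.30 (SE 0.82, edgeR adjusted p = 0.59) and Dlx1 at 1.53 (SE 0.81, edgeR adjusted p = 0.87), and without cKO 1 they were at 1.05 and 0.70. The test called 6 of 10691 genes (0.0561%), with 636 at an unadjusted p under 0.05, Dlx2 and Sp9 among the latter. GTE had 90 and 132 Gad cells in cKO and 133 and 126 in control, or 6.25%, 4.52%, 3.37% and 4.10% of cells. Among cells with at least 1000 counts, thinned to 1000 each, 48, 66, 71 and 64 were Gad cells in the same order. These were 3.23% to 3.50% of such cells. None of the 6 genes passed the filter for the genotype test within GTE Gad cells or for the test of precursor-like against astrocyte-like cells. Cells with both Sp8 and Sp9 numbered 2 in GTE, both in cKO 1. Of the list of 40 lineage genes, 34 were tested between GTE genotypes and 0 were called by edgeR or DESeq2, with 1, Gsx1, at an unadjusted p under 0.05. The median log2 fold change of these 34 was 0.19 beside -0.05 over all genes. Both cKO libraries were above both controls for 9 of the 34, beside 19.9% of 13594 genes. They were below both controls for 1, beside 1011 of the 13594 genes.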

How the data were processed

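The 6 genes, the marker lists and the list of 40 lineage genes were chosen with earlier results of these data known. Per the labels' protocols, cells were sorted and put through the 10x Genomics Chromium 3' v2 chemistry. The authors deposited 1 table of raw counts by gene and by cell from either sort, which listed 17836 genes for D1Tom and 15769 for GTE, and a list that gives the library of each cell. The submitters' processing notes name bcl2fastq 2.17.1.14, Cell Ranger 2.1.1, FastQC 0.11.5, UMI-tools 0.5.4, STAR 2.5.2b, featureCounts, Subread 1.6.2 and SAMtools 1.6 and the builds mm10 and GRCm38.p6, without saying which step used which. The cell filter and the treatment of doublets are not given in the sources used here, and no further cell was removed and no doublet caller was run, so cells with markers of 2 types may be doublets.

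Counts were summed per library, or per library and cell class, and CPM were taken over those sums. Sums were fitted with edgeR 4.0.16 (filterByExpr, TMM scaling, quasi-likelihood test, Benjamini-Hochberg adjustment, threshold 0.05) and, as an alternative, DESeq2 1.42.0 in R 4.3.3. The SE of a log2 fold change was taken from the F statistic. The genotype fits behind the printed log2 fold changes and SE had no batch term, except where a block is named. A cell was put in the class whose 6 markers had the most genes detected, with at least 2 and no tie. Named besides the 6 genes were Foxp2, other Dlx and Sp genes, lineage genes that passed a test or were among the 4 largest differences without overlap, and the 3 genes most alike by Pearson correlation (least mean 5 CPM). Levels per cell were compared at 1000 counts per cell. Limits for a count of 0 take 3 counts and cover counting error only. Nothing says that the libraries of a group came from separate animals, so p-values measure the spread between libraries. Same-numbered D1Tom libraries share a batch per the labels, and their deviations from the group means correlated at 0.53 over 11141 genes. The edgeR fit was tested on simulated data before use. Alternatives were replicate blocks, DESeq2, other scaling, no filter, other class rules and leaving out each library. Values of some genes of the marker and lineage lists are not reported here.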

Additional observations from a re-analysis of the deposited data

How the results depend on the processing

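D1Tom levels of all 6 genes stayed higher in cKO than in control over all cells and in cells without Gad under every alternative run. Over all cells the log2 fold changes ranged from 0.63 to 2.01 for Sp8 and from 0.71 to 2.04 for Sp9. The GTE depth of 4878370 to 6092396 counts per library limits what can be seen there. The cause of the changes below was not tested.

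In D1Tom Gad cells the sign of the log2 fold change turned without olfactory and lateral list cells, to -0.22 for Dlx1, -0.25 for Dlx2, -0.23 for Dlx5, -0.60 for Dlx6 and -0.0915 for Sp9. Sp8 stayed above 0, at 0.0422. Apart from that of Dlx6, each of these values was smaller in size than its SE given above. Dlx6 in Gad cells was -0.0215 with at least 2 Gad counts per cell and -0.49 to 1.01 without single libraries, below 0 without cKO 1 and without control 2. Between precursor-like and astrocyte-like D1Tom cells, values near 0 changed sign: Dlx1 was 0.0047 by DESeq2 and 0.0032 with its size factors, Dlx5 0.0115 by DESeq2, 0.0024 with its size factors and 0.0189 with at least 3 markers, and Dlx2 -0.12 with at least 3 markers. Without single libraries these ran from -0.20 to 0.28 for Dlx1, -0.10 to 0.33 for Dlx2, -0.32 to 0.44 for Dlx5 and -1.18 to 0.0138 for Sp8. In GTE between genotypes they ran from -1.71 to 0.43 for Dlx1, -0.66 to 0.77 for Dlx2, -0.40 to 3.51 for Dlx5, -1.94 to 0.20 for Dlx6 and -0.70 to 1.11 for Sp9, and no gene of the 6 was called in any of them.

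With the replicate number as a block, genes called in D1Tom went from 0 to 1 over all cells, from 0 to 120 in Gad cells and from 0 to 4 in cells without Gad. Dlx2, Sp8 and Sp9 were among the 120 and Dlx2 among the 4, in a contrast that led to the choice of the genes. In GTE the labels give no pairing, and same-numbered libraries deviated apart (correlation -0.37 over 10357 genes). There the block gave 0 calls over all cells and 3 in Gad cells, and Sp9 was at 0.10 with it. The crossed pairing, added after the data were seen, gave 24 and 8 calls.

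Among the other counts of genes called, DESeq2 gave 20 in D1Tom over all cells, 12 in Gad cells and 13 in cells without Gad. Sp8 and Sp9 were among the 12, and Dlx1, Dlx2, Dlx5 and Sp9 among the 13. The genes were chosen from these D1Tom contrasts, so nothing is read from these calls. In GTE, DESeq2 gave 0 between genotypes, 1 in Gad cells and 3 for Gad cells against the rest. With no filter on low counts there was 1 in D1Tom cells without Gad, and in GTE 18 between genotypes, 15 in Gad cells and 10 for Gad cells against the rest. At least 2 Gad counts gave 1 in GTE Gad cells, counting cells gave 1 over all GTE cells, and GABAergic-like against excitatory-like D1Tom cells gave 4809, against 2129 for Gad cells. Without single libraries the counts ran in D1Tom from 0 to 6 over all cells, 0 to 122 in Gad cells, 0 to 15 in cells without Gad, 874 to 1601 for Gad cells against the rest and 1921 to 3277 between the glial classes, and in GTE from 1 to 27 between genotypes, 5 to 69 in Gad cells and 2 to 10 for Gad cells against the rest.
The libraries whose removal moved a count by over 1.5 times were, in D1Tom, cKO 1 (5), cKO 2 (1) and control 2 (15) for cells without Gad, cKO 1 (57), cKO 2 (122) and control 2 (2) for Gad cells, cKO 1 (5) and control 2 (6) for all cells, and cKO 1 for both contrasts between cell types. In GTE they were cKO 1 (8), cKO 2 (27), control 1 (1) and control 2 (8) between genotypes, control 1 (9) and control 2 (69) in Gad cells, and cKO 1 (10) and cKO 2 (2) for Gad cells against the rest.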
